A study of Mus musculus with 2 samples.

Results

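The genes described here encode the subunits, assembly factors and regulators of the proteasome, and their promoters were read from DNase-seq of mouse frontal cortex. DNase I cuts DNA that is not wrapped in nucleosomes, so a stretch with many cuts, called a peak, marks open chromatin. A short gap in the cuts inside such a stretch, called a footprint, marks bases that were protected. Members were all protein-coding genes of the GENCODE M21 annotation on chromosomes 1 to 19 whose symbol begins with Psma, Psmb, Psmc, Psmd, Psme, Psmf or Psmg and continues with a number. This rule found 49 of 20807 protein-coding genes and used no measured value. It left out 1 such gene on chromosome X, Psmd10. It also found Psmc3ip, a protein of meiotic recombination, and Psme2b, a gene named after Psme2, which carry the symbol without being counted among the subunits here. A promoter peak is a peak that overlaps, by at least 1 bp, the 500 bp to either side of any annotated transcription start site (TSS) of a gene.

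Both libraries came from the frontal cortex of female F1 mice of the strain B6CASTF1/J, a cross of B6 and CAST, at 36 days of age. They form 1 group of 2 biological replicates with no treatment, mutation or second tissue, so the values can be described and compared between replicates but no test between conditions exists. The labels give the replicates separate tissue records and the same donor label, so separate animals are not established and the spread between them may be technical. Each replicate has a shorter and a longer peak list, made separately for each library: 29700 and 56015 peaks in replicate 1, and 66512 and 117579 in replicate 2. Replicate 1 has 112826 footprints and replicate 2 has 250543. The number of reads per library was not used here, and no interval is given, since the depth behind each value is unknown. As a check of the tissue label, promoter peaks were found at 3 of 6 neuronal marker genes in both replicates and at 5 of 6 in replicate 2. The same held in both replicates for 2 of 3 astrocyte markers, 1 of 3 oligodendrocyte markers and 0 of 3 microglial markers. It also held there for 0 of 3 endothelial markers and 0 of 5 genes of other organs. Of the latter, Alb had a peak with a signal of 0.379 in replicate 2. Among all protein-coding genes of chromosomes 1 to 19, the share with such peaks was 52.0% for both replicates and 61.2% for replicate 2. The neuronal count for both replicates was therefore not above this background, while that for replicate 2 was. With so few markers, these counts do not settle the tissue label.

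The proteasome degrades proteins that carry ubiquitin chains. Its core is a barrel of outer alpha rings, which gate the entrance, and inner beta rings, which hold the protease sites. A regulatory particle caps the barrel: its ATPases unfold the substrate, and its lid removes ubiquitin. In cells exposed to interferon, Psmb8, Psmb9 and Psmb10 replace the standard catalytic subunits Psmb5, Psmb6 and Psmb7 and change which peptides are cut for antigen presentation. Psmb11 is the catalytic beta subunit of cortical thymus epithelium, and Psma8 is an alpha subunit of the testis. The transcription factor Nfe2l1 raises many proteasome genes together when the proteasome is inhibited, through antioxidant response elements (AREs). In neurons the proteasome is known for turning over synaptic proteins.

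The sequences below show open promoter DNA of these genes on the gene strand, 5′ to 3′, from GRCm38 (mm10). Each lies within the 260 bases centred on the highest promoter peak of replicate 2, ended where an annotated untranslated region would run beyond 30 bases. Capitals mark bases under a footprint in both replicates. The immune members are shown because they were set against the other classes. Psmb8 is from chr17:34197531-34197750 on the plus strand, Psmb9 from chr17:34187446-34187475 on the minus strand, and Psmb10 from chr8:105937061-105937320 on the minus strand.
Psmb8: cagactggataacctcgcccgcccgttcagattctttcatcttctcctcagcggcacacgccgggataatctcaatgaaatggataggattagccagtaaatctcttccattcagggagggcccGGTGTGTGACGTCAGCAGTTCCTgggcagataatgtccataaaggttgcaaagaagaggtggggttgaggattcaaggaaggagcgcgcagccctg
Psmb9: TCGTCACCTGTCTCTGGGCAGATTTGCCCT
Psmb10: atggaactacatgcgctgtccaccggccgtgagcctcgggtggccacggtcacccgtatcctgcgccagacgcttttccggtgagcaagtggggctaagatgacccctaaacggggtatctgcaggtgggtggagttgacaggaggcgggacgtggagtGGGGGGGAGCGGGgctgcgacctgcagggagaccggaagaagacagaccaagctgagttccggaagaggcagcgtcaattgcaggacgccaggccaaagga
Psmb8 had 23 bases under a footprint in both replicates, and they hold the cAMP response element TGACGTCA at positions 131 to 138, counted from 1 at the 5′ end. All 30 printed bases of Psmb9 were protected in both replicates. These bases are a small part of the Psmb9 peak, which was 260 bp wide in replicate 2, and do not stand for the whole of it. They are exonic in the annotation and begin downstream of the representative TSS of Psmb9, the start of the transcript ranked first by APPRIS, support level and length. Psmb10 had 13 such bases, in a stretch that lies inside the gene and includes 80 coding bases.

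The members with the highest mean signal in the 4 larger classes follow, to show what the most accessible promoters look like. Psma2 is from chr13:14613136-14613269, Psmb3 from chr11:97703181-97703428, Psmc5 from chr11:106256050-106256183 and Psmd3 from chr11:98682401-98682583, all on the plus strand.
Psma2: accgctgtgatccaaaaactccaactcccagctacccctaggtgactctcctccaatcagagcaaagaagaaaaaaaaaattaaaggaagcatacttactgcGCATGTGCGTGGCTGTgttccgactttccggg
Psmb3: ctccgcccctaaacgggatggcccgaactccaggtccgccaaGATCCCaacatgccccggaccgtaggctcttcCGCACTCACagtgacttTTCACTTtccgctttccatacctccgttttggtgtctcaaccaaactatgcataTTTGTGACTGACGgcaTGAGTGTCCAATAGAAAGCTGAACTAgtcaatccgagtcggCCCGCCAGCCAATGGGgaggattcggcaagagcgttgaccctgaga
Psmc5: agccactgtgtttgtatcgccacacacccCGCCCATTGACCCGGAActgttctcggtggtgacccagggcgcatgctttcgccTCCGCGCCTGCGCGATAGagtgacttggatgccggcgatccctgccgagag
Psmd3: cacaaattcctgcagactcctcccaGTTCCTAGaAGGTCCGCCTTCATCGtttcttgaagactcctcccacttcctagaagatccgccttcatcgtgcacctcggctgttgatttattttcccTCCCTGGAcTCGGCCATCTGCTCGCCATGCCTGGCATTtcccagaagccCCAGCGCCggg
In Psmb3, 77 bases were protected in both replicates, including both CCAAT boxes, at positions 169 to 173 and 211 to 215. Psmd3 had 69 such bases in 183, Psmc5 had 35 in 134 and Psma2 had 16 in 134.

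A last set holds members with an ARE-like match under a footprint in both replicates, the first 4 by symbol. Psmb2 is from chr4:126677491-126677659 on the plus strand, and the others are on the minus strand: Psmb5 from chr14:54617993-54618160, Psmc3ip from chr11:101095407-101095580 and Psmd7 from chr8:107588435-107588600.
Psmb2: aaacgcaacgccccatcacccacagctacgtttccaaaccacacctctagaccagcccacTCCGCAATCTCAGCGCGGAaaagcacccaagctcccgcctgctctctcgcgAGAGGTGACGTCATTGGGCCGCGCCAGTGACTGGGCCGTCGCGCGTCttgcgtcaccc
Psmb5: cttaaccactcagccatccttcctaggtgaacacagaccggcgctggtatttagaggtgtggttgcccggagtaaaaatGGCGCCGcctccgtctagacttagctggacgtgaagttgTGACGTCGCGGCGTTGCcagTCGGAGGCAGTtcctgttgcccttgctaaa
Psmc3ip: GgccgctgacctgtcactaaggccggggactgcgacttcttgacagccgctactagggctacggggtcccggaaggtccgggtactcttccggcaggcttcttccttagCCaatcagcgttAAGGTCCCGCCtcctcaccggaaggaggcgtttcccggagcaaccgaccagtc
Psmd7: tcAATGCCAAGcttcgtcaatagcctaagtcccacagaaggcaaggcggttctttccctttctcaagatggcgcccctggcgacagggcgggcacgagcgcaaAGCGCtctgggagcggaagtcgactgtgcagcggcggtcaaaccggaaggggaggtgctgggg
In Psmb2 the match TGACTGGGC lies at positions 139 to 147, over the TSS at position 140, and TGAGATTGC lies at positions 64 to 72 on the opposite strand. Psmb5 holds TGACGTCGC at positions 119 to 127. Psmc3ip holds TGAGGAGGC at positions 130 to 138 on the opposite strand, of which only part is under the footprint shared by both replicates. Psmd7 holds TGACGAAGC at positions 11 to 19 on the opposite strand, of which the base at position 11 is under the footprint shared by both replicates.

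Nearly all proteasome genes had an open promoter in the frontal cortex. A promoter peak was present in each replicate, and in both, at 46 of 49 members (93.9%) in the shorter list, and at the same number in the longer list. Over all protein-coding genes of chromosomes 1 to 19, the shorter list gave 52.2% in replicate 1, 61.2% in replicate 2 and 52.0% in both, and the longer list gave 59.5%, 65.7% and 59.2%. The members' share was therefore above the background in every list, while no test of that difference was made. In whole tissue, fewer cells with an open promoter and weaker opening in each cell cannot be told apart. The 3 without a promoter peak in any list were Psma8, Psmb11 and Psme2b.

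The closed members are the testis subunit, the thymus subunit and Psme2b. None of them had a peak or a footprint anywhere in the gene in either replicate, and none had a base within 500 bp of its representative TSS with a cut rate FDR of 0.001 or less, where FDR is the authors' false discovery rate of the cut rate at each base. Psma8, on chromosome 18, has 6 annotated TSSs, and the nearest peak of the shorter list lay 22811 bp away in replicate 1 and 22831 bp away in replicate 2. Psmb11, on chromosome 14, lies beside Psmb5, and its nearest peak, 3293 bp away in both replicates, was that of Psmb5, with a signal of 3.31 and 3.82. Psme2b, on chromosome 11, has 1 TSS and spans 837 bp. Its nearest peak in the shorter list was 87849 bp away in replicate 1 and 87850 bp away in replicate 2.

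The strength of an open promoter was read as the signal of its highest promoter peak, the authors' tag density normalized for read depth. Across the 46 open members the median signal was 2.47 in replicate 1 (range 0.978 to 5.88) and 4.42 in replicate 2 (1.72 to 8.79), a mean of 3.45 ± 1.38 (SD, n = 2). The 10816 protein-coding genes with a promoter peak in both replicates had medians of 2.30 and 4.07. In replicate 1, 26 of the 46 members lay above the median of the genes with a promoter peak in that replicate, and in replicate 2, 32 did. Among the genes with a peak in the same replicate, the members had a median percentile of 55.6 in replicate 1 and 63.3 in replicate 2, against 50.02 and 57.5 for the genes open in both. Ranks of the members were similar between replicates, with a Spearman coefficient of 0.88 across the 46 genes against 0.93 across all open genes, which share the 2 libraries.

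**Figure D1:**
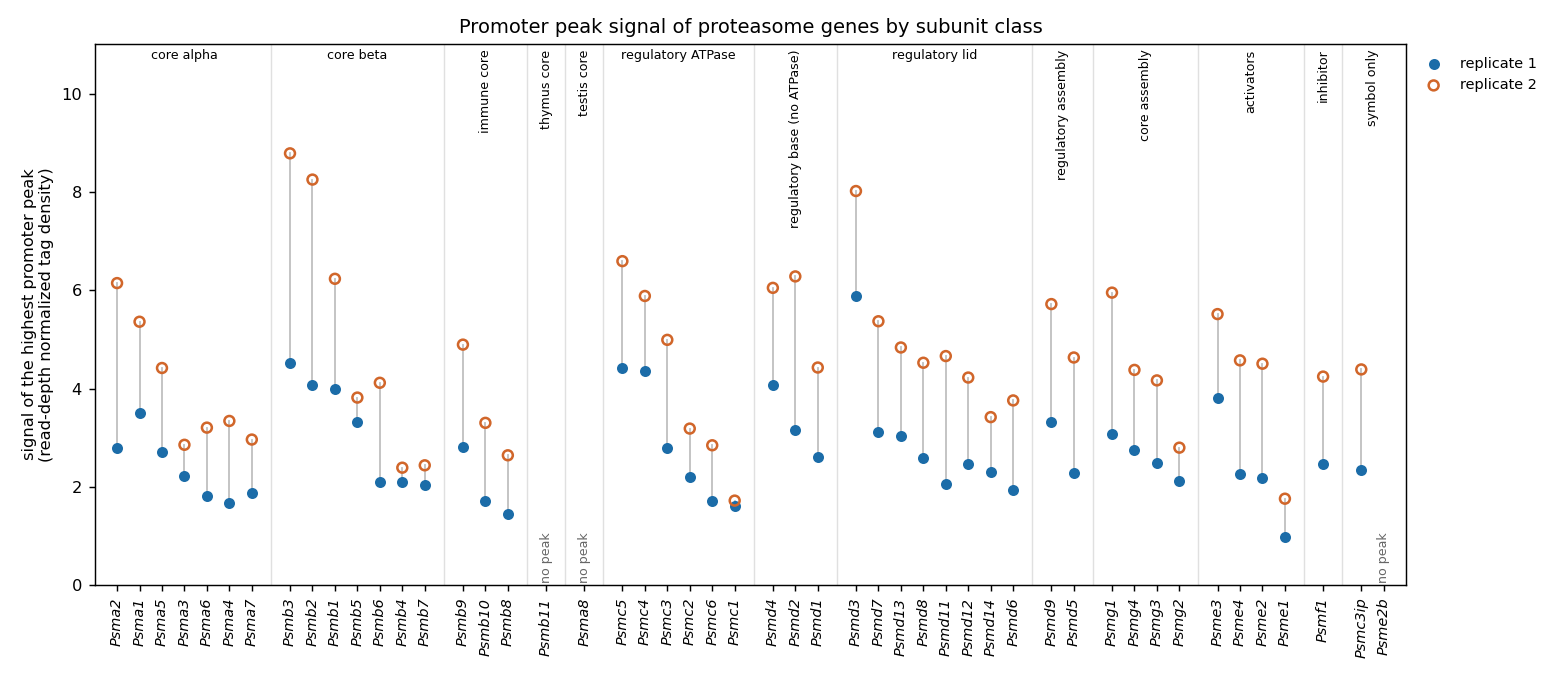
Signal of the highest promoter peak (read-depth normalized tag density, y axis) of each proteasome gene (x axis), by subunit class and, within a class, from high to low mean. Filled points are replicate 1, open points replicate 2, and a line joins both values of a gene. Every open member sits higher in replicate 2, Psmd3 is at 5.88 and 8.02, Psme1 is at 0.978 and 1.76, and 3 genes have no peak.

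The alpha subunits of the core, which form the outer rings, were all open, with a median signal of 2.23 in replicate 1 and 3.34 in replicate 2 over 7 genes. Psma2 had the highest mean, with 2.78 and 6.15, and Psma7 had the lowest, with 1.87 and 2.96. Psma1 was highest in replicate 1, with 3.50 against 5.36 in replicate 2, so the order at the top changed between replicates. Psma2 begins 75 bp from the oppositely directed Mrpl32, a mitochondrial ribosomal protein gene, and Psma7 begins 76 bp from Ss18l1, so the same peak served the TSS windows of both genes in each pair.

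The standard beta subunits ranged more widely than the alpha subunits. Their medians were 3.31 and 4.12 over 7 genes. Psmb3 had 4.51 and 8.79, the highest signal of any member in replicate 2, and Psmb2 had 4.08 and 8.25. Both encode structural subunits without protease activity. Psmb7, the trypsin-like catalytic subunit, had the lowest mean of the class, with 2.03 in replicate 1 and 2.44 in replicate 2. The chymotrypsin-like subunit Psmb5 had 3.31 and 3.82, and the caspase-like subunit Psmb6 had 2.10 and 4.12. Catalytic members therefore did not hold the highest values of the class in either replicate. The highest peak of Psmb1, with 3.98 and 6.23, had its midpoint at -1563 and -1583 bp from its representative TSS, in a region where other transcripts of Psmb1 and the TATA-binding protein gene Tbp begin.

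The 3 immune subunits had a promoter peak in both replicates when all annotated TSSs were used, but Psmb10 lost it in replicate 1 when the representative TSS alone was used. Psmb8, on chromosome 17, had 1.45 in replicate 1 and 2.64 in replicate 2. Psmb9, its neighbour, had 2.82 and 4.89, and Psmb10, on chromosome 8, had 1.72 and 3.30. Psmb8 and Psmb10 thus lay below the median of the open members in both replicates, and Psmb9 lay above it. The immune medians were 1.72 and 3.30, against 2.46 and 3.97 for the 14 standard alpha and beta subunits, and the groups overlapped in both replicates. The rank of Psmb8 among open protein-coding genes was at the percentile 21.2 in replicate 1 and 34.8 in replicate 2. Against the standard subunits they replace, Psmb8 was below Psmb5 in both replicates and Psmb9 was above Psmb6 in both. Psmb10, by its highest peak, was below Psmb7 in replicate 1 and above it in replicate 2. At the representative TSS alone, Psmb10 had no peak in replicate 1 and 1.09 in replicate 2, against 2.03 and 2.44 at Psmb7. The order of Psmb10 and Psmb7 in replicate 2 thus depended on the TSS used. The Psmb9 peak also lies in the TSS window of Tap1, which encodes the peptide transporter of antigen presentation, so the signal cannot be divided between both genes. At Psmb10 the highest peak lay 1275 and 1253 bp downstream of the representative TSS, over the start of another annotated transcript, and the 300 bases around the representative TSS had a CpG ratio of 0.249. CpG ratio is the number of CG pairs over that expected from the base composition.

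All 17 members that encode subunits of the regulatory particle were open in both replicates, with medians of 2.62 and 4.66. Among the 6 ATPases, which unfold substrates, Psmc5 had 4.42 and 6.59 and Psmc4 had 4.35 and 5.88. Psmc1 had the lowest values of the class, 1.60 and 1.72, and its signal in replicate 2 was the lowest of any open member. The other base subunits among the members are Psmd1 and Psmd2, which form its scaffold, and Psmd4, a ubiquitin receptor. Psmd1 had 2.62 and 4.43, Psmd2 had 3.16 and 6.28, and Psmd4 had 4.08 and 6.05. All 3 were above the median of the members in both replicates.

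Lid subunits had medians of 2.53 and 4.59 over 8 genes. Psmd3, a structural lid subunit, had 5.88 and 8.02, which put it at the percentile 99.3 of open protein-coding genes in replicate 1 and 95.8 in replicate 2. Psmd6 had the lowest mean of the lid, with 1.93 and 3.76. Psmd14, the enzyme that removes ubiquitin chains, had 2.30 and 3.42. Psmd3 was above every other member in replicate 1 and below Psmb3 and Psmb2 in replicate 2.

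Assembly factors were open at all 6 genes. Psmd9 and Psmd5, chaperones of the regulatory base, had 3.32 and 5.72, and 2.27 and 4.63. The chaperones of the core gave 3.07 and 5.95 at Psmg1, 2.12 and 2.80 at Psmg2, 2.47 and 4.17 at Psmg3, and 2.75 and 4.38 at Psmg4. Their level was close to that of the subunits, with class medians of 2.61 and 4.27 for the core chaperones and 2.80 and 5.17 for the base chaperones.

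Activators bind the core in place of the regulatory particle, and they include the open promoter with the lowest mean signal. Psme1, which pairs with Psme2 in the interferon-induced activator, had 0.978 in replicate 1 and 1.76 in replicate 2, at the percentiles 6.57 and 19.9 of open genes. Psme2 had 2.18 and 4.51, in a peak whose midpoint lay at -404 and -564 bp from its representative TSS and which reached the TSS window of Rnf31, the oppositely directed neighbour. It lay 188 and 388 bp from the nearest annotated TSS of Psme2, so its signal cannot be assigned to Psme2 alone. Psme3, the nuclear activator, had 3.82 and 5.51, and Psme4, an activator of nuclear proteasomes, had 2.25 and 4.57. Psmf1, an inhibitor of the core in biochemical assays, had 2.46 and 4.24. Psmc3ip had 2.34 and 4.39.

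All open members had a higher signal in replicate 2. Over the 46 members the log2 ratio (replicate 2 over replicate 1) had a median of 0.78, or 1.72-fold, and quartiles of 0.57 and 0.95, against a median of 0.79, or 1.73-fold, over the 10816 open protein-coding genes, of which 99.1% were higher in replicate 2. The proteasome genes therefore followed the shift of all open promoters between the libraries, and its cause was not tested. Psmd11, a lid subunit, had the largest log2 ratio, 1.18, with 2.05 and 4.66, followed by Psma2 with 1.14 and Psme2 with 1.05. The smallest were 0.10 at Psmc1, 0.19 at Psmb4, which had 2.10 and 2.39, and 0.20 at Psmb5. With 2 replicates, a single gene's ratio has no error of its own.

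Cleavage was concentrated around the TSS. At the 50 bases that begin at the representative TSS (positions 0 to 49), 88.2% of member positions in replicate 1 and 90.9% in replicate 2 had an FDR of 0.001 or less, against 40.6% and 51.0% over all protein-coding genes. Many of those genes are closed. Within 500 bp of the representative TSS, the median number of such bases was 552.5 and 730.5 at open members, against 519 and 732 at open genes, so the open members were close to other open promoters. In the outer 250 bp upstream, which end 250 bp before the TSS, these shares were 18.3% and 35.7% for the members, against 15.9% and 25.9% for all genes. From 250 to 500 bp after the TSS the members had 30.04% and 55.0%, against 17.2% and 32.7%. Footprints covered 17.3% and 22.9% of the member bases in the 100 bp before the TSS, against 8.73% and 12.7% for all genes. Median peak width was 260 bp in replicate 1 and 240 bp in replicate 2 at the open members, against 260 bp in both at all open genes. The midpoint of the highest peak lay within 250 bp of the representative TSS at 41 of 46 members in replicate 1 and 40 in replicate 2. The share over all open genes is not given for this position, so it is not shown to be particular to the members.

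**Figure D2:**
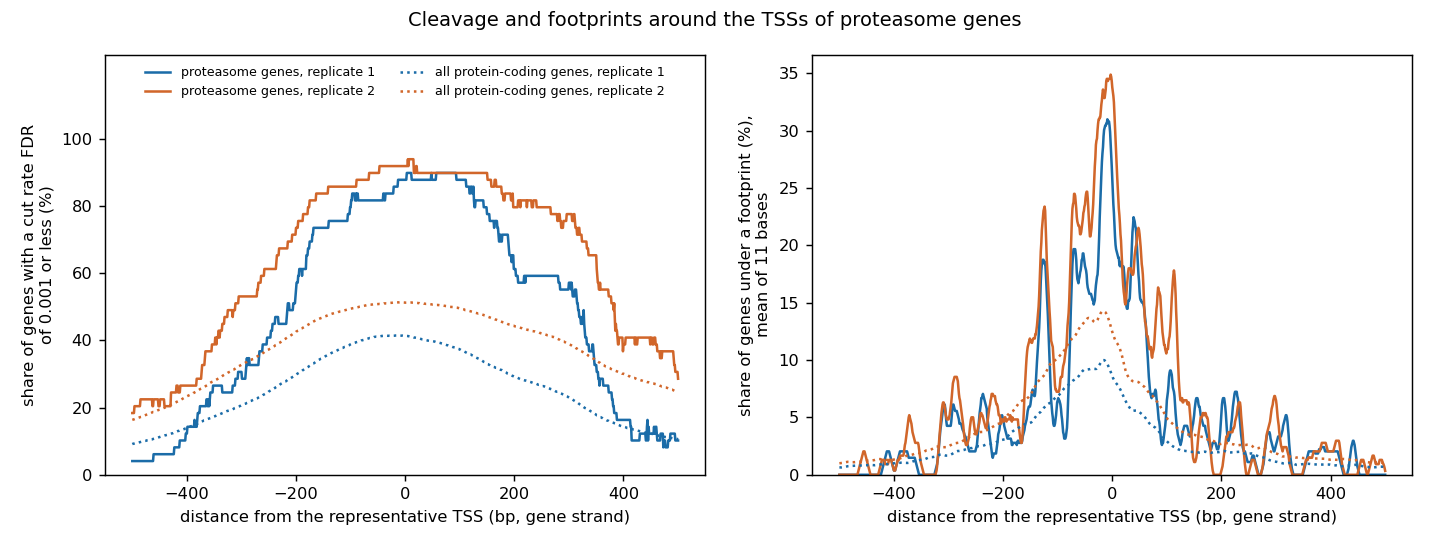
Left, share of genes (%) with a cut rate FDR of 0.001 or less at each base around the representative TSS. Right, share of genes (%) under a footprint, as a running mean of 11 bases; solid lines are the 49 proteasome genes, dotted lines all 20807 protein-coding genes, blue replicate 1 and orange replicate 2. The members' curves stand above those of all genes near the TSS in both replicates.

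Footprints were present at all 46 open members and at none of the 3 closed ones. Nearly all open genes had them too: of 10816, 10689 had a footprint in replicate 1 and 10791 in replicate 2. There were 236 within 500 bp of a member TSS in replicate 1 and 292 in replicate 2, with a median of 5 and 6 per member, against 2 and 4 for all protein-coding genes and 5 and 7 for the open ones. More were found in replicate 2 at 28 of the 46 open members, the same number at 7 and fewer at 11, against more at 7452, the same at 1408 and fewer at 1956 of the 10816 open genes. Of the replicate 1 footprints, 147 (62.3%) overlapped a replicate 2 footprint, against 58.8% at all open genes. Per gene, the number of footprints followed the signal loosely, with Spearman coefficients of 0.44 in replicate 1 and 0.23 in replicate 2 over the members. All members share the depth of their library, and a longer footprint list covers more bases.

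Psmb1 had the most footprints, 12 in replicate 1 and 14 in replicate 2, over 4 annotated TSSs. Its windows take in both the representative TSS and the upstream region where Tbp also begins, so more sequence was searched than around a single TSS. Psmd3 had 11 and 10, Psme3 had 9 and 11, Psmc4 had 9 and 7, and Psma7 had 6 and 11. At the low end, Psmb7 had 2 and 1, Psmb8 had 1 and 2, and Psmc1 had 2 and 3. By the mean of both replicates, Psma4 was lowest among the alpha subunits and Psmd14 in the lid, with 4 in each replicate at both genes. Among the other immune members, Psmb9 had 5 and 3 and Psmb10 had 6 and 9. Beta subunits had fewer footprints in replicate 2 at 4 of 7 genes, while alpha subunits had more at 6 of 7, and that difference was not tested.

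**Figure D3:**
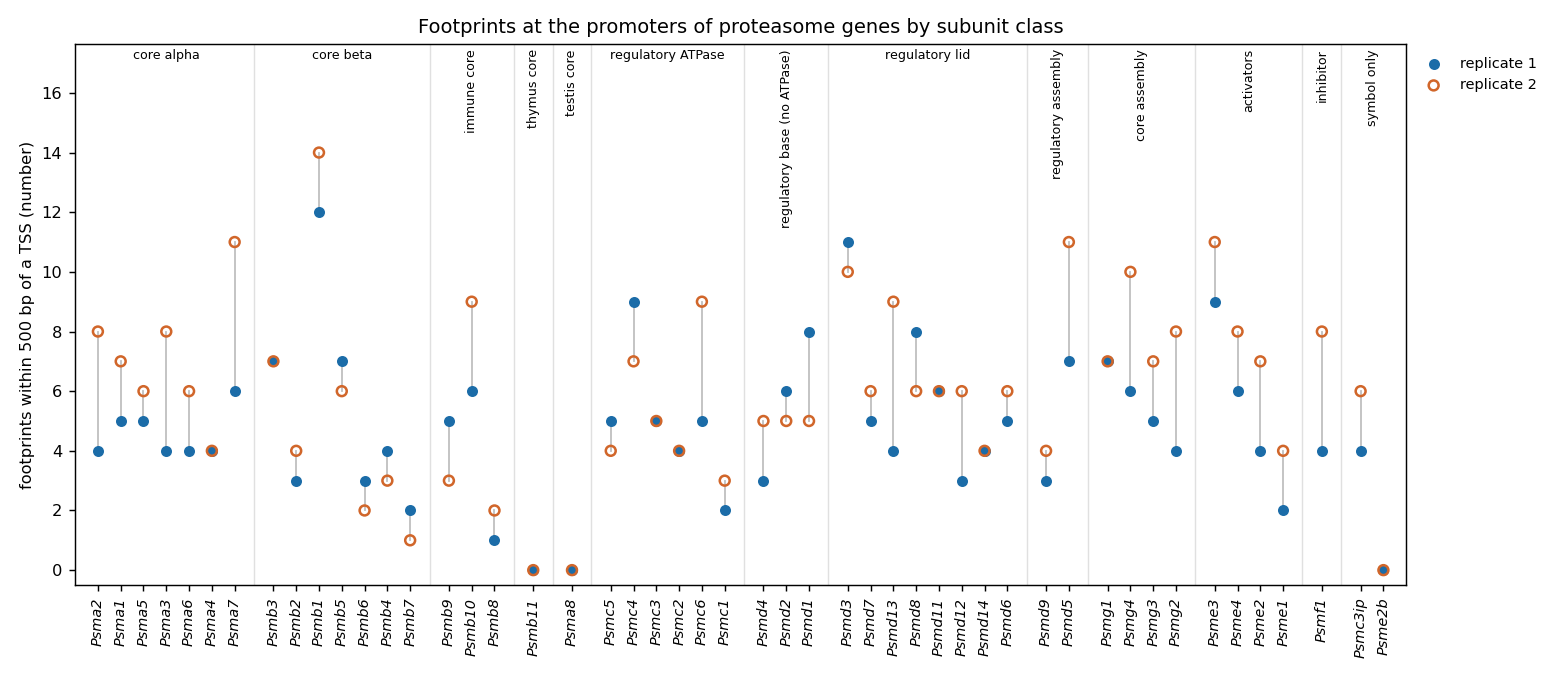
Number of footprints within 500 bp of any TSS (y axis) of each proteasome gene (x axis), in the class order and gene order of the signal plot, with filled points for replicate 1 and open points for replicate 2. Psmb1 is highest, with 12 and 14, over windows that include the region where Tbp also begins. Psma8, Psmb11 and Psme2b are at 0 in both.

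Base composition of the promoters was close to that of open promoters in general. The 300 bases from 250 before to 50 after the representative TSS had a median GC content of 58.0% at the open members, against 61.0% at all open genes. The median CpG ratio was 0.789, against 0.785 for open genes and 0.573 for all protein-coding genes. Among the closed members, Psmb11 had a ratio of 0.165 and Psme2b 0.325, while Psma8 had 0.764, near the median of the open members. In 6 of 49 members (12.2%) an oppositely directed protein-coding gene began within 1000 bp, against 7.16% of all and 12.7% of open protein-coding genes. These pairs were Psma2 with Mrpl32, Psma7 with Ss18l1, Psmc2 with Dnajc2 at 32 bp, Psmc5 with Ftsj3, Psme2 with Rnf31 at 621 bp and Psmg2 with Cep76. In each replicate, 11 members had a highest peak that reached the TSS window of another gene. For this count no share over other open genes is given, so it does not set the members apart.

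Exact matches to 13 motifs were sought on both strands of these 300 bases. The motifs were the ARE TGACNNNGC, its variant TGAGNNNGC, the CCAAT box CCAAT, the GC box GGGCGG, the ETS motif CCGGAAG, the nuclear respiratory factor motif GCATGCGC, the YY1 motif AAGATGGCG, the cAMP response element TGACGTCA, the ZBTB33 motif TCTCGCGAG, the interferon regulatory factor motif GAAANNGAA, the NF-kB motif GGANNTTCC, the heat shock factor motif GAANNTTC and the TATA box TATAAA. In the members' windows, matches of different motifs overlapped in 1 case of ARE with GC box, 3 of the ARE variant with GC box, 1 of CCAAT box with cAMP response element, 2 of GC box with ETS and 2 of ETS with NF-kB. A match counts as under a footprint when at least 1 base overlaps. It describes letters and does not show that a factor was bound.

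**Figure D4:**
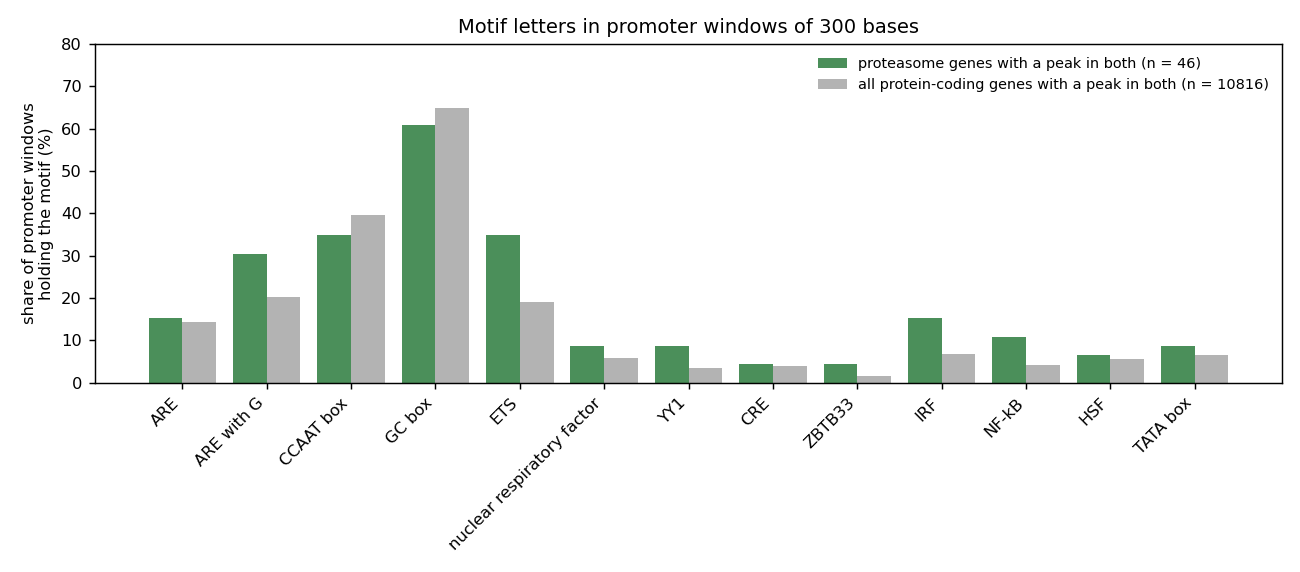
Share (%) of promoter windows of 300 bases that hold at least 1 exact match to each motif, for the 46 open proteasome genes (green, left bar) and the 10816 protein-coding genes open in both replicates (grey, right bar). The ETS bars are at 34.8% and 18.99%, and the ARE bars at 15.2% and 14.2%.

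ETS letters were found at 16 of the 46 open members (34.8%), against 18.99% of open protein-coding genes. The share differed between the classes: 10 of 17 regulatory subunits (58.8%) held the motif, against 1 of the 14 standard core subunits, Psma6. None of the 3 immune members held it in these windows, which for Psmb10 lie away from its peak. The Psmb10 peak sequence printed above holds the ETS letters at positions 192 to 198 and 219 to 225, the second under a footprint in replicate 2. Among the 6 ATPases, Psmc1, Psmc2, Psmc3 and Psmc6 held it, and among the lid subunits Psmd6, Psmd7, Psmd11 and Psmd12. With 500 bp to each side of the TSS, 13 of 17 regulatory and 3 of 14 standard core subunits held it, so the order of the groups was the same. This split was noticed in the data and no test of it was made. Of the 19 matches at open members, 6 (31.6%) were under a footprint in each replicate, against 34.7% and 50.1% at open genes. At Psme3 and Psme4 all 3 matches were under a footprint in both replicates.

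How frequent ARE letters were at these promoters, set against other open ones, depended on the form and the window. The motif TGACNNNGC was present at 7 of the 46 open members (15.2%), against 14.2% of open genes. The variant TGAGNNNGC was present at 14 (30.4%), against 20.2%. With 500 bp to each side of the TSS, TGACNNNGC was present at 26 of the 46 (56.5%), against 36.6%, and the variant at 29 (63.0%), against 51.1%. Of the 7 matches to TGACNNNGC, 4 were under a footprint in replicate 1 and 5 in replicate 2, against 29.2% and 37.0% of the matches at open genes. Those under a footprint in both were at Psmb2, Psmb5, Psmd7 and Psmd9, where TGACCCCGC begins at position -31 from the TSS. For the variant, 4 of 14 were under a footprint in replicate 1 and 6 in replicate 2, against 21.9% and 28.3%. These were under a footprint in both at Psmb2, Psmc3ip and Psmg4. The Psmb2 promoter printed above thus holds both forms, the cAMP response element at positions 117 to 124 and the ZBTB33 motif at positions 105 to 113, all under footprints in both replicates. Of the ZBTB33 letters only the last few are in capitals, so most of that match was not under a footprint shared by both replicates.

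Several rarer motifs appeared at a few members. The ZBTB33 letters were found at Psmb2 and Psmd5, with 6 matches that overlap in pairs on opposite strands, all under a footprint in both replicates, against 56.8% and 65.0% of the matches at open genes. The cAMP response element was found at Psmb2 and Psmb8, under a footprint in both replicates at both genes, against 71.9% and 87.4% at open genes. The YY1 letters were found at Psmb6, Psmc5, Psmd7 and Psmd11 (8.70%, against 3.41% of open genes), under a footprint at all 4 in replicate 1 and at 1 in replicate 2, against 39.7% and 53.9% of the matches at open genes. The interferon regulatory factor motif was found at 7 open members (15.2%, against 6.80%), of which none was an immune subunit in this window, and it was under a footprint in both replicates at Psmb3 and Psmb4. The windows of Psmb9 and Psmb10 are set by representative TSSs that lie away from their peaks. With 500 bp to each side of the TSS, 2 of 3 immune members, Psmb9 and Psmb10, held this motif in 5 matches, none of them under a footprint. GC boxes were present at 60.9% of open members and 64.8% of open genes, and CCAAT boxes at 34.8% and 39.5%. Nuclear respiratory factor letters were at 8.70% of open members, against 5.89% of open genes. Their matches were under a footprint in 50% and 62.5% of cases, against 76.1% and 88.5%. NF-kB letters were at 10.9%, against 4.19%, with 40% and 20% under a footprint, against 21.9% and 26.9%. Heat shock factor letters were at 6.52%, against 5.53%, with 33.3% and 66.7%, against 15.1% and 20.3%. TATA boxes were at 8.70%, against 6.63%, with 0% and 20%, against 9.93% and 15.5%. With so few matches per motif, 1 gene moves a share by several percentage points.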

How the data were processed

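DNase-seq peaks, footprints and per-base cut rates of 2 libraries were used as deposited, on mm10 per the labels. The aligner and the callers of peaks and footprints had names and settings not given in the sources used here. Peaks were listed for each library and not pooled. The peak signal deposited by the authors is a read-depth normalized tag density and was compared as such. The footprint score deposited by the authors is 0.01 throughout and ranks nothing. The p-value column deposited by the authors is an FDR of the cut rate that ends at 0.05. The alleles of the parental strains were not analysed here. The members, classes, partner genes, markers and motifs were chosen with earlier results of these data known. All members may be named; values were given for every member of classes of at most 4, for the highest and lowest by mean signal and mean footprints in larger classes, for closed members and for the 3 highest and lowest replicate ratios. Psma1, Psmb2 and Psmb6, whose signals are also given, and the genes named for a motif lie outside this rule and were chosen after their values were seen. TSSs came from GENCODE M21 and sequences from GRCm38. Overlap of at least 1 bp was counted with Python 3.11.15, numpy 2.4.6 and pandas 2.3.3, and figures were drawn with matplotlib 3.10.9. The overlap code was tested on simulated TSSs. No test between groups was possible with 1 group of 2 replicates. Alternatives were TSS windows of 250 and 1000 bp, the representative TSS alone, the longer list, peak midpoints, the stronger peaks of each list, footprints inside peaks, a wider motif window and each replicate alone.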

Additional observations from a re-analysis of the deposited data

How the results depend on the processing

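The number of proteasome genes with a promoter peak in both replicates was 45 or 46 under all alternatives run: TSS windows of 250 and 1000 bp, the representative TSS alone, the longer list, peak midpoints and the peaks of each list with the highest signal. The member lost was Psmb10 with the representative TSS alone and Psme1 with the peaks of highest signal. The number was 46 with either replicate left out. The median signal was 2.47 in replicate 1 and 4.42 in replicate 2 under all of these, with a median log2 ratio of 0.78. Footprints at member promoters ranged from 192 to 248 in replicate 1 and from 244 to 303 in replicate 2, and were fewest when counted inside peaks of the shorter list. Motif counts depended on the window: with 500 bp to each side of the TSS, ARE letters were found at 28 of 49 members (57.1%, against 34.0% of all protein-coding genes) in place of 7 (14.3%, against 12.8%), and 20.5% and 15.4% of the matches were under a footprint. At open members alone these shares were 21.6% and 16.2%, against 14.5% and 19.2% at open genes. In the wider window they were thus above open genes in replicate 1 and below them in replicate 2. In all, 16 of 39 motif values moved with the wider window. The limits are 2 replicates of 1 group, unknown library depth, and peaks shared between neighbouring genes. No paired analysis was possible because the 2 libraries belong to 1 group.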

Other observations

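Genes that work with the proteasome were also open in the frontal cortex. Of 29 partner genes listed, 28 were found by symbol, and all 28 had a promoter peak in both replicates, with a median signal of 2.67 in replicate 1 and 4.50 in replicate 2. Over all protein-coding genes of chromosomes 1 to 19, 52.0% had a promoter peak in both, and these open genes had medians of 2.30 and 4.07. The peak counted for Tap1 is the one it shares with Psmb9. Rad23b, a shuttle that carries ubiquitinated proteins to the proteasome, had 5.07 and 10.4, and Zfand2a, which binds proteasomes during arsenite stress, had 6.16 and 8.15. Nfe2l1 had 4.28 and 6.84 with 11 and 22 footprints, while the related factor Nfe2l2 had 1.44 and 2.40 with 3 and 7. Vcp, the unfoldase that extracts ubiquitinated proteins, had 3.46 and 7.71. Ubb, which encodes ubiquitin, had 4.56 and 7.29. In antigen processing, Tap2 had 2.09 and 2.98, and Tapbp, which loads peptides onto class I molecules, had 4.11 and 5.51. These genes ranged from 1.26 to 6.16 in replicate 1 and from 2.40 to 10.4 in replicate 2, which overlaps the range of the subunits.

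Some proteasome genes also held peaks away from the promoter. Peaks were counted when their midpoint lay inside the gene and farther than 1000 bp from any annotated TSS of any gene. By this count, 3 members held 3 peaks in replicate 1, and 6 members held 7 peaks in replicate 2. No share over all protein-coding genes is given here for comparison, so these counts do not set the members apart from other genes. Psma2, Psmc2 and Psmd9 held a peak of this kind in both replicates. Most open members had a single promoter peak, 32 of 46 in each replicate. In replicate 2, 10 had 2 and 4 had 3, while in replicate 1 the other 14 had 2. For these promoter peak counts, too, no share over other open genes is given, and genes differ in their number of annotated TSSs.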
